A study of Homo sapiens with 9 samples.

Results

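A set of 10 feedback and target genes of WNT/beta-catenin signalling was followed through RNA sequencing of the established human embryonic stem cell (hESC) line H9: AXIN2, NKD1, RNF43, ZNRF3, LGR5, LEF1, TCF7, SP5, SP8 and TNFRSF19. They were taken by gene symbol from a table of 46427 genes, each symbol matched 1 row, and all 10 were among the 20685 genes that passed the filter on low counts. The 9 libraries formed 3 groups of 3. Neural progenitor cells (NPC) of in vitro day 11 given bafilomycin A1 (BafA1 NPC) were set against untreated NPC of the same day (control NPC), and both were set against undifferentiated hESC. The NPC of both groups came from a midbrain dopaminergic protocol with LDN193189 at 200 nM and SB431542 at 10 µM, inhibitors of BMP and TGF-beta receptor kinases, with purmorphamine at 2 µM, an agonist of Hedgehog signalling, and with CHIR99021 at 3 µM, a GSK3 inhibitor that itself turns on beta-catenin signalling. The start and end of the purmorphamine and CHIR99021 exposures were not given in the sources used here. Bafilomycin A1 blocks the V-ATPase, the proton pump of lysosomes, so that autophagosomes are not degraded. It was used at 10 nM for 6 h, and the labels name several windows between day 4 and day 10 without saying which the sequenced cells had. All libraries came from 1 line.

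Without a WNT signal, beta-catenin is captured by AXIN, APC, casein kinase and GSK3, phosphorylated and degraded. A WNT ligand bound to Frizzled and LRP5/6 acts through Dishevelled to halt that capture, and beta-catenin then enters the nucleus and binds the TCF/LEF proteins on DNA. Several of the genes it turns on feed back on the pathway, at the capture complex (AXIN2), at Dishevelled (NKD1), at the receptors (RNF43 and ZNRF3) or on the target promoters themselves (SP5). In the early neural tube WNT signalling sets posterior identity and takes part in the making of the midbrain.

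Of the 10 genes, 4 differed between BafA1 NPC and control NPC: TCF7, RNF43 and NKD1 fell and ZNRF3 rose. AXIN2, LEF1, LGR5, SP5, SP8 and TNFRSF19 did not pass the test. Against hESC, 9 of the 10 genes were higher in control NPC and SP8 was lower. The share of all tested genes called in the same comparisons was large. With BafA1, 41.5% of all tested genes were called (20.8% higher and 20.7% lower, against 1 and 3 of the 10). Between control NPC and hESC, 64.5% were called (33.0% higher and 31.6% lower, against 9 and 1 of the 10). The 4 of 10 called with BafA1 is therefore near the share over all genes.

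**Figure D1:**
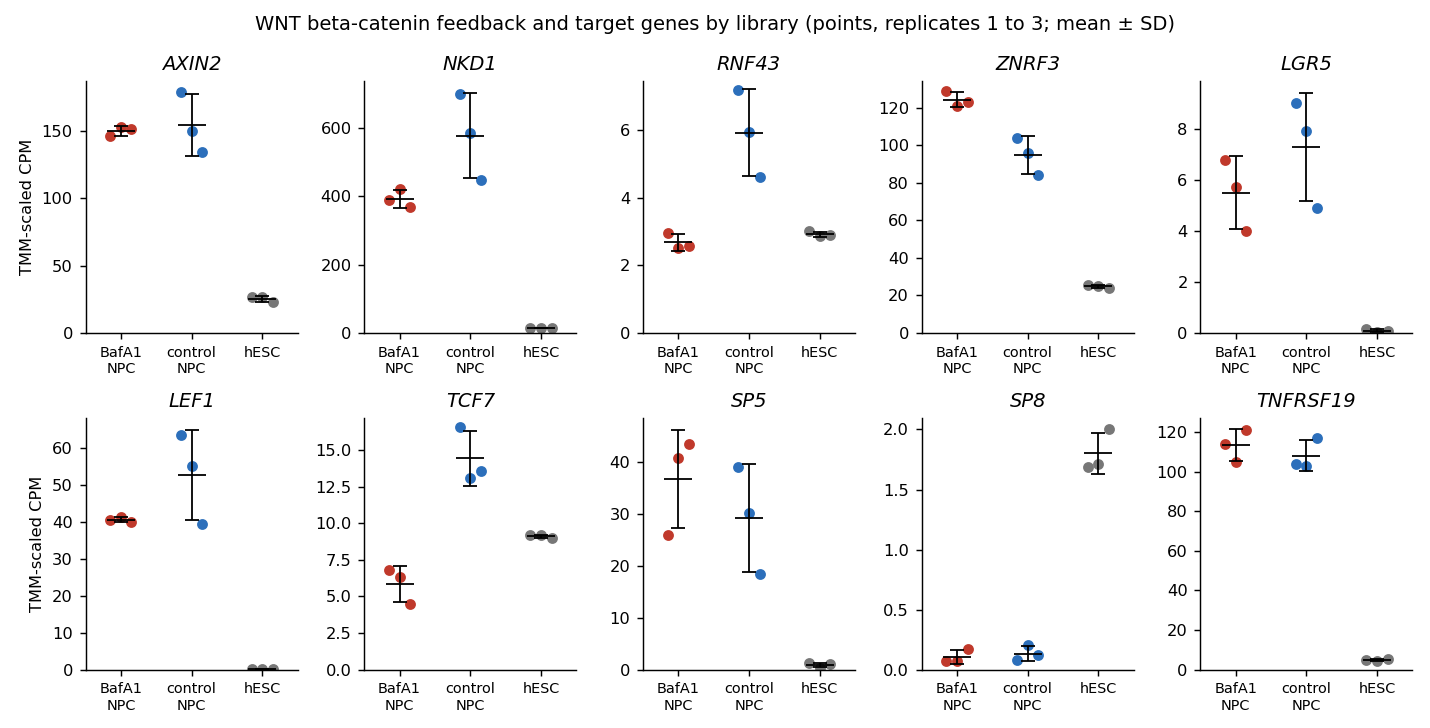
Level of each of the 10 genes in every library (TMM-scaled CPM on a linear axis), with BafA1 NPC left of control NPC and hESC at the right, and the group mean with its SD. LEF1, NKD1, LGR5, SP5 and TNFRSF19 stand far above hESC in both NPC groups, SP8 stands below, and TCF7 and RNF43 are lower in BafA1 NPC than in control NPC in every library.

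The libraries held 43124679 to 69703791 counts, so that 3 counts, the floor used here, correspond to 0.0461 to 0.0731 CPM. CPM are counts over the library total scaled by its TMM factor, and are given per library in the order of the replicate numbers. Changes are log2 fold changes of edgeR's quasi-likelihood test with their SE, with Benjamini-Hochberg adjusted p over all tested genes and calls at an adjusted p under 0.05. Replicates are biological ones per the labels, which do not name the culture of each. RNA of whole cultures was sequenced, so fewer cells of a type and less RNA per cell cannot be told apart in any value below.

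Marker lists were used to check the labels. The 8 markers of the midbrain floor plate all had counts in NPC, with a summed level of 563 to 782 CPM in BafA1 NPC, 474 to 790 CPM in control NPC and 121 to 141 CPM in hESC. Of them SHH was highest in BafA1 NPC and control NPC (means 188 and 215 CPM) and OTX2 in hESC (mean 68.5 CPM). Pluripotency markers summed to 811 to 888 CPM in BafA1 NPC and 580 to 639 CPM in control NPC, mostly LIN28A, against 5712 to 6049 CPM in hESC, and POU5F1 had no count in control NPC. Mesenchyme markers summed to 3102 to 3471 CPM in BafA1 NPC, 1668 to 2768 CPM in control NPC and 165 to 180 CPM in hESC, with COL1A1 highest in both NPC groups and COL1A2 in hESC. Endoderm markers, mostly CXCR4, summed to 236 to 290 CPM in BafA1 NPC, 118 to 180 CPM in control NPC and 13.3 to 14.1 CPM in hESC, with GATA4 at 0 in both NPC groups. Forebrain markers summed to 19.9 to 25.6 CPM in BafA1 NPC, 7.26 to 16.9 CPM in control NPC and 49.2 to 56.4 CPM in hESC. These sums rest on different genes. The hESC sum was mostly SIX6 (mean 49.6 CPM), which had no count in NPC. In NPC the highest was NKX2-1 (mean 17.1 CPM in BafA1 NPC and 8.16 CPM in control NPC), which had no count in hESC. Postmitotic neuron markers summed to 156 to 183 CPM in BafA1 NPC, 127 to 155 CPM in control NPC and 97.4 to 100 CPM in hESC. Neural crest markers, with FOXD3 at 0 in both NPC groups and SOX10 at 0 in control NPC, summed to 79.7 to 96.2 CPM in BafA1 NPC, 60.4 to 88.3 CPM in control NPC and 81.8 to 90.7 CPM in hESC. ETS1 was the highest of them in each group (mean 57.5 CPM in BafA1 NPC, 49.7 CPM in control NPC and 43.2 CPM in hESC). Isthmus and anterior hindbrain markers summed to 3.62 to 5.51 CPM in BafA1 NPC, 10.1 to 10.9 CPM in control NPC and 1.07 to 1.89 CPM in hESC. Neuromesodermal and presomitic mesoderm markers summed to 7.70 to 10.3, 2.68 to 4.21 and 5.16 to 5.78 CPM in the same groups. Of the latter, HES7 was highest in BafA1 NPC and TBX6 in the other groups. TBXT, MSGN1 and CDX2 had 4, 3 and 0 counts in all in BafA1 NPC and 24, 2 and 5 in control NPC. The part of these other cell types in the values of the 10 genes was not tested.

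TCF/LEF proteins bind a short motif, read here as CTTTGAT or CTTTGAA on either strand (the 2 do not overlap each other in these windows). Promoter windows on GRCh38.p14 were available for 6 of the 10 genes (SP5, SP8, LEF1, TCF7, RNF43 and TNFRSF19). There were 9, each of 300 bases, 250 before the start site and 50 after it. Start sites of the LEF1 window, both TCF7 windows and 1 window each of RNF43 and TNFRSF19 lay 2631 to 15400 bases inside the gene. Of these 9 windows 2 held a match, those of SP5 and SP8, where 6.86% of 35116 windows of all genes held one (2.62% CTTTGAT and 4.43% CTTTGAA). The 250 bases before the start site follow for SP5, the gene with 3 matches, for SP8, with 1, and for RNF43, which has none and fell with BafA1. Capitals mark the motif, which reads TTCAAAG where CTTTGAA lies on the other strand.
SP5 promoter, chr2:170715087-170715336, plus strand: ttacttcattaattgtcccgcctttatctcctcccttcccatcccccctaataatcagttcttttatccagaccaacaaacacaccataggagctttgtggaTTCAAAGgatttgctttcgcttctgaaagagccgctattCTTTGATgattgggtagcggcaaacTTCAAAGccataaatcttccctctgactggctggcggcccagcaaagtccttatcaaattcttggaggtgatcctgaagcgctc
SP8 promoter, chr7:20786887-20787136, minus strand: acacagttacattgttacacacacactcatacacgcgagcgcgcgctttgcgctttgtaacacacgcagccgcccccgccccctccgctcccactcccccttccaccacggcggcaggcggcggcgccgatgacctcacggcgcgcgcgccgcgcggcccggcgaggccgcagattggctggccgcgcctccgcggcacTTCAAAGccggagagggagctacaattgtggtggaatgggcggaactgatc
RNF43 promoter, chr17:58417535-58417784, minus strand: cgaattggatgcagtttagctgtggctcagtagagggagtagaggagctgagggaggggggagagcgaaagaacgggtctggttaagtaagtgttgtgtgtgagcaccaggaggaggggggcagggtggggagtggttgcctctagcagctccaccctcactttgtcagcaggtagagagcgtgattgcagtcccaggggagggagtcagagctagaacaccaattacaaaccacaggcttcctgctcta
Counted back from the start site, the SP5 matches lie at -148 to -142, -109 to -103 and -84 to -78, and the SP8 match lies at -51 to -45. A match of these letters does not show that a factor binds there, and WNT enhancers often lie outside such windows.

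AXIN2, the inducible AXIN that rebuilds the beta-catenin capture complex, is the most general of the feedback genes (Entrez gene 8313, chr17:65528563-65561648). Its level was 146, 153 and 151 CPM in BafA1 NPC, 179, 150 and 134 CPM in control NPC and 27.0, 26.5 and 22.9 CPM in hESC. The BafA1 values lay within the range of the control values, and all NPC values were far above hESC. The log2 fold change was -0.04 ± 0.11 between BafA1 NPC and control NPC (adjusted p = 0.797). It was 2.6 ± 0.11 between control NPC and hESC (adjusted p = 2.66e-09), a 6.05-fold higher level. The change with BafA1 had the other sign, 0.08, without replicate 1 of control NPC.

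NKD1, a Dishevelled-binding antagonist of the pathway, fell with BafA1 (Entrez gene 85407, chr16:50548396-50649249). It stood at 390, 421 and 369 CPM in BafA1 NPC, against 699, 585 and 449 CPM in control NPC, while hESC had 14.4, 14.1 and 13.6 CPM. The NPC groups did not overlap, although replicate 3 of control NPC came close to the BafA1 libraries. NKD1 was 1.47-fold lower in BafA1 NPC (log2 fold change -0.55 ± 0.14, adjusted p = 0.00666). In control NPC it was 41.3-fold higher than in hESC (5.37 ± 0.16, adjusted p = 1.23e-10), and in BafA1 NPC 28.1-fold higher (4.81 ± 0.16, adjusted p = 2.33e-10).

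RNF43 and ZNRF3 encode related transmembrane ubiquitin ligases that remove Frizzled and LRP6 from the cell surface. They went opposite ways with BafA1. RNF43 (Entrez gene 54894, chr17:58352500-58417534) had 2.97, 2.51 and 2.58 CPM in BafA1 NPC, 7.20, 5.96 and 4.63 CPM in control NPC and 3.01, 2.87 and 2.90 CPM in hESC. Every BafA1 library was below every control NPC library, and the BafA1 libraries overlapped with hESC. RNF43 was 2.21-fold lower in BafA1 NPC than in control NPC (log2 fold change -1.14 ± 0.18, adjusted p = 0.000557). It was 2.02-fold higher in control NPC than in hESC (1.02 ± 0.18, adjusted p = 0.000396), and did not pass the test between BafA1 NPC and hESC (-0.12 ± 0.19, adjusted p = 0.565).

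ZNRF3 (Entrez gene 84133, chr22:28883572-29057488) had 129, 121 and 123 CPM in BafA1 NPC, 104, 96.0 and 84.2 CPM in control NPC and 25.5, 24.8 and 24.2 CPM in hESC. Again the groups did not overlap. The rise with BafA1 was 1.31-fold (log2 fold change 0.39 ± 0.09, adjusted p = 0.00349). Against hESC, ZNRF3 was 5.00-fold higher in BafA1 NPC and 3.81-fold higher in control NPC (adjusted p = 9.26e-10 and 3.95e-09). The call with BafA1 was the smallest change among the 4 and was lost in the 3 limma fits on log2(FPKM + pseudocount), at adjusted p = 0.0689 to 0.0906.

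LGR5 is a receptor for R-spondins, which clear RNF43 and ZNRF3 from the membrane, and is known as a marker of WNT-driven stem cells in the gut (Entrez gene 8549, chr12:71439129-71586310). It stood at 6.79, 5.73 and 3.98 CPM in BafA1 NPC and 9.01, 7.92 and 4.91 CPM in control NPC. In hESC it had 10, 3 and 5 counts, or 0.154, 0.0552 and 0.0853 CPM, close to the floor (18 counts in all, exact 95% counting interval 10.7 to 28.4). The NPC groups overlapped, with a log2 fold change of -0.41 ± 0.26 (adjusted p = 0.24). Against hESC, LGR5 was 70.9-fold higher in control NPC (6.15 ± 0.39, adjusted p = 5.69e-08) and 53.5-fold higher in BafA1 NPC (5.74 ± 0.39, adjusted p = 8.84e-08).

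**Figure D2:**
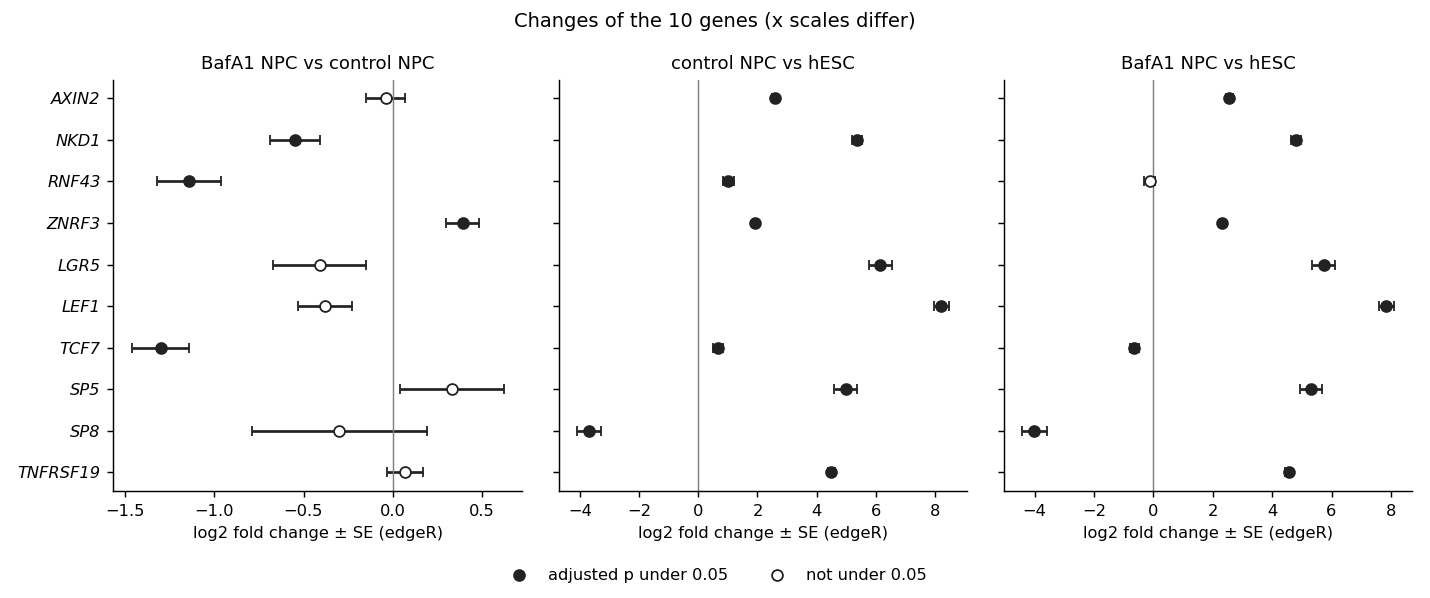
Log2 fold change with its SE for each of the 10 genes in BafA1 NPC against control NPC, control NPC against hESC and BafA1 NPC against hESC (x scales differ). Filled points have an adjusted p under 0.05 in edgeR's quasi-likelihood test. TCF7 at -1.30 and RNF43 at -1.14 lie farthest from 0 in the first panel, and LEF1 at 8.22 in the second.

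LEF1 and TCF7 belong to the 4 TCF/LEF proteins through which beta-catenin reaches DNA, and both are also target genes of the pathway. LEF1 (Entrez gene 51176, chr4:108047548-108168932) had the largest difference from hESC of the 10 genes. Its level was 40.5, 41.4 and 40.0 CPM in BafA1 NPC, 63.6, 55.1 and 39.5 CPM in control NPC and 0.108, 0.221 and 0.205 CPM in hESC, the last from 31 counts in all (exact 95% counting interval 21.1 to 44.0). Replicate 3 of control NPC lay below all BafA1 libraries and the other control libraries above them. LEF1 was 298-fold higher in control NPC than in hESC (log2 fold change 8.22 ± 0.25, adjusted p = 1.15e-10) and 230-fold higher in BafA1 NPC (7.85 ± 0.25, adjusted p = 1.54e-10). With BafA1 the log2 fold change was -0.38 ± 0.15 (adjusted p = 0.0613), which did not pass. Without replicate 3 of control NPC it was -0.55 and passed (adjusted p = 0.00249). It also passed with scaling by library size alone (-0.50, adjusted p = 0.0195) and with limma on the filtered genes at pseudocounts of 1 and 0.1 (-0.49 and -0.52, adjusted p = 0.0289 and 0.0413).

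TCF7, which is also transcribed from an inner promoter into a form that cannot bind beta-catenin, had the largest change with BafA1 (Entrez gene 6932, chr5:134108218-134148210). It stood at 6.81, 6.34 and 4.49 CPM in BafA1 NPC, 16.6, 13.1 and 13.6 CPM in control NPC and 9.19, 9.17 and 8.97 CPM in hESC. No pair of groups overlapped, and hESC lay between the NPC groups. TCF7 was 2.46-fold lower in BafA1 NPC than in control NPC (log2 fold change -1.30 ± 0.16, adjusted p = 0.000113). Against hESC it was 1.58-fold higher in control NPC (0.66 ± 0.16, adjusted p = 0.00307) and 1.55-fold lower in BafA1 NPC (-0.64 ± 0.16, adjusted p = 0.00408). The call between BafA1 NPC and hESC was lost when GC and length trends were removed (-0.31, adjusted p = 0.103). Counts per gene do not separate the 26 transcripts of TCF7 in the files.

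SP5 and SP8 encode zinc finger factors of the SP family. SP5, a target of beta-catenin that represses other targets of the pathway, has the 3 motif matches printed above (Entrez gene 389058, chr2:170715337-170718078). It had 26.0, 40.8 and 43.5 CPM in BafA1 NPC, 39.0, 30.1 and 18.4 CPM in control NPC and 1.26, 0.387 and 1.07 CPM in hESC. The NPC groups overlapped over most of their range, with a log2 fold change of 0.33 ± 0.29 (adjusted p = 0.389), and the sign turned to -0.18 when GC and length trends were removed. SP5 was 31.6-fold higher in control NPC than in hESC (4.98 ± 0.38, adjusted p = 2.99e-07) and 39.8-fold higher in BafA1 NPC (5.31 ± 0.38, adjusted p = 1.55e-07).

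SP8, a patterning factor of the forebrain, the isthmus and the limb, was the gene of the 10 that was lower in control NPC than in hESC (Entrez gene 221833, chr7:20782279-20786886). Its counts were 4, 3 and 11 in BafA1 NPC, 4, 12 and 7 in control NPC and 110, 93 and 117 in hESC. In CPM these were 0.0728, 0.0731 and 0.171 in BafA1 NPC, 0.0770, 0.203 and 0.123 in control NPC and 1.69, 1.71 and 2.00 in hESC. The NPC values were at or a little above the floor of 3 counts and overlapped. SP8 was 13.0-fold lower in control NPC (log2 fold change -3.70 ± 0.40, adjusted p = 5.39e-06) and 16.1-fold lower in BafA1 NPC than in hESC (-4.01 ± 0.41, adjusted p = 3.09e-06). At this depth a change with BafA1 was not detectable (-0.30 ± 0.49, adjusted p = 0.656), and its sign turned to 0.12 without replicate 2 of control NPC.

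TNFRSF19, also called TROY, is a TNF receptor family member that is induced by WNT signalling (Entrez gene 55504, chr13:23570412-23676093). It had 114, 105 and 121 CPM in BafA1 NPC, 104, 103 and 117 CPM in control NPC and 4.70, 4.25 and 5.49 CPM in hESC. The NPC groups overlapped, with a log2 fold change of 0.07 ± 0.10 (adjusted p = 0.576), whose sign turned to -0.05 with scaling by library size alone. Against hESC it was 23.6-fold higher in BafA1 NPC (4.56 ± 0.12, adjusted p = 3.96e-11) and 22.4-fold higher in control NPC (4.49 ± 0.12, adjusted p = 4.29e-11).

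Between BafA1 NPC and hESC, 7 of the 10 genes were called higher, TCF7 and SP8 lower, and RNF43 was not called. Of all tested genes 70.4% were called in that comparison, 35.5% higher and 34.8% lower. Both comparisons with hESC share the hESC libraries, and the first 2 comparisons share control NPC. The median log2 fold change of the 10 genes was -0.34 between BafA1 NPC and control NPC, 3.54 between control NPC and hESC and 3.56 between BafA1 NPC and hESC, where the medians of all tested genes were 0.00, 0.03 and 0.02. The libraries of BafA1 NPC and control NPC did not overlap for 4 of the 10 genes, where 49.2% of all tested genes did not overlap. Those of control NPC and hESC did not overlap for any of the 10, those of BafA1 NPC and hESC not for 9 of the 10, and the shares over all tested genes were 72.8% and 74.6%. Where libraries were scaled by their totals only, the median over all genes moved to -0.12 in the comparison of BafA1 NPC with control NPC, and 3104 genes were called higher and 5681 lower, against 4309 and 4277 with TMM. The 4 calls with BafA1 kept their direction and their side of the threshold under that scaling.

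The BafA1 libraries differed among themselves less than the control NPC libraries did for 7 of these genes. The coefficient of variation of AXIN2 was 2.43% in BafA1 NPC and 14.8% in control NPC. For LEF1 it was 1.68% in BafA1 NPC and 23.1% in control NPC, and for NKD1 6.64% in BafA1 NPC and 21.7% in control NPC. TCF7 went the other way, with 20.9% in BafA1 NPC and 13.3% in control NPC. So did SP8 (53.5% and 47.4%, on few counts) and TNFRSF19 (7.12% and 6.84%). Of the control NPC libraries, replicate 1 was highest for 8 of the 10 genes and replicate 3 lowest for 7 (AXIN2, LEF1, NKD1, SP5, LGR5, RNF43 and ZNRF3). The summed mesenchyme markers followed the same order, with 2768, 2109 and 1668 CPM in control NPC replicates 1, 2 and 3, and the summed floor plate markers the opposite one, with 474, 562 and 790 CPM. Their part in the spread was not tested, and neither the spread nor the order of the libraries was counted over all tested genes. Without replicate 3 of control NPC the calls stood, at -1.34 for TCF7, -1.29 for RNF43, -0.71 for NKD1 and 0.31 for ZNRF3 (log2 fold change, adjusted p = 0.000258, 0.000238, 0.000423 and 0.0102).

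Levels of different genes were compared per length, as the authors' FPKM (mean ± SD, n = 3). In BafA1 NPC the order was AXIN2 (27.9 ± 0.872), TNFRSF19 (21.9 ± 2.36), NKD1 (18.7 ± 0.685), ZNRF3 (14.7 ± 1.07), SP5 (13.5 ± 3.24), LEF1 (9.55 ± 0.224), TCF7 (1.5 ± 0.329), LGR5 (0.978 ± 0.255), RNF43 (0.397 ± 0.0533) and SP8 (0.0212 ± 0.0141). Among neighbours in that order, ZNRF3 and SP5 overlapped, as did TCF7 and LGR5. In control NPC, AXIN2 (32.3 ± 4.93), NKD1 (30.5 ± 6.84) and TNFRSF19 (23.0 ± 1.23) led, each overlapping with the next. There LEF1 (14.1 ± 3.66), ZNRF3 (12.4 ± 1.41) and SP5 (11.3 ± 3.76) formed a second run whose neighbours overlapped, followed by TCF7 (4.16 ± 0.394), then LGR5 (1.44 ± 0.434) and RNF43 (1.14 ± 0.345), which overlapped, and SP8 (0.0309 ± 0.0172). In hESC, AXIN2 (5.05 ± 0.397), ZNRF3 (3.12 ± 0.0648) and TCF7 (2.43 ± 0.0581) led without overlap, and LEF1 (0.0419 ± 0.0146) and LGR5 (0.0157 ± 0.0105), which overlapped, were last. AXIN2 was first in all 3 groups.

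**Figure D3:**
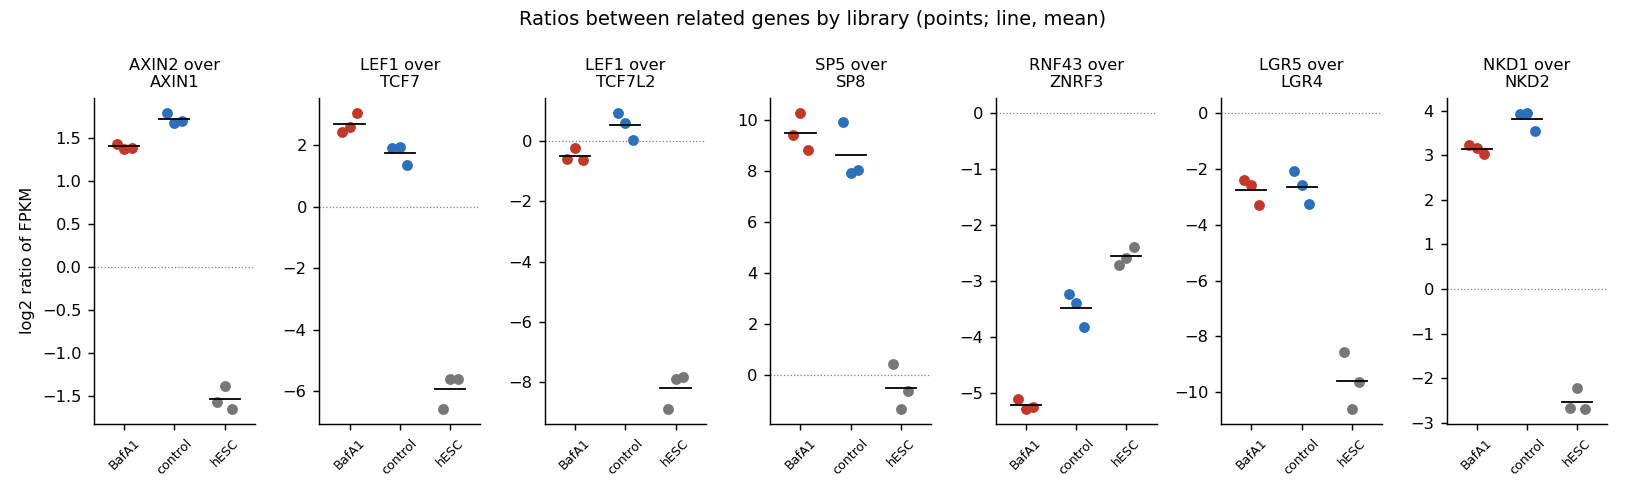
Log2 ratio of FPKM of 7 pairs of related genes in each library, with BafA1 NPC left of control NPC and hESC at the right. The RNF43 over ZNRF3 ratio is -5.28 to -5.11 in BafA1 NPC, -3.82 to -3.23 in control NPC and -2.71 to -2.39 in hESC, without overlap.

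Ratios between related genes were taken within each library. The log2 ratio of RNF43 over ZNRF3 was -5.11, -5.28 and -5.25 in BafA1 NPC, -3.23, -3.40 and -3.82 in control NPC and -2.71, -2.59 and -2.39 in hESC. ZNRF3 thus exceeded RNF43 by 37.1 times in BafA1 NPC, 11.2 times in control NPC and 5.90 times in hESC. The ratio was lower in BafA1 NPC than in control NPC by 1.73 log2 units in the means. With CPM in place of FPKM the change was -1.52. With 3 against 3 libraries the smallest p that the two-sided exact permutation test can give is 0.1, and it gave that value here (adjusted p = 0.117 over the 14 ratio tests).

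Within the TCF/LEF family the order of the genes differed between groups. The log2 ratio of LEF1 over TCF7 was 2.43, 2.6 and 3.05 in BafA1 NPC, 1.90, 1.94 and 1.36 in control NPC and -6.57, -5.61 and -5.61 in hESC. LEF1 was 6.45 times TCF7 in BafA1 NPC and 3.32 times in control NPC, and TCF7 was 61.0 times LEF1 in hESC. The log2 ratio of LEF1 over TCF7L2, a TCF that acts as activator or repressor by context, was -0.60, -0.23 and -0.63 in BafA1 NPC, 0.95, 0.61 and 0.04 in control NPC and -8.90, -7.91 and -7.85 in hESC. All 3 BafA1 libraries had less LEF1 than TCF7L2 and all 3 control NPC libraries had more. Each of these comparisons reached the smallest possible p of the exact permutation test, 0.1 (adjusted p = 0.117).

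The other pairs gave the following. AXIN2 over its constitutive partner AXIN1 had a log2 ratio of 1.41 ± 0.03 in BafA1 NPC, 1.73 ± 0.06 in control NPC and -1.53 ± 0.14 in hESC (SD, n = 3), so AXIN1 exceeded AXIN2 in hESC and AXIN2 exceeded AXIN1 in NPC. NKD1 over NKD2 was 3.14 ± 0.10 in BafA1 NPC, 3.81 ± 0.22 in control NPC and -2.53 ± 0.27 in hESC. LGR5 over LGR4 was -2.77 ± 0.47 in BafA1 NPC, -2.65 ± 0.59 in control NPC and -9.59 ± 1.03 in hESC, with LGR4 above LGR5 in every library. SP5 over SP8 was 9.49 ± 0.74 in BafA1 NPC, 8.61 ± 1.14 in control NPC and -0.52 ± 0.89 in hESC, on few SP8 counts in NPC. Of the 14 comparisons, 12 had no overlap and so had the exact permutation p of 0.1, which any ratio without overlap gives. The pairs SP5 with SP8 and LGR5 with LGR4 overlapped between BafA1 NPC and control NPC (exact permutation p = 0.3 and 0.7). No share over other gene pairs was computed. Of single tested genes, 49.2% did not overlap between BafA1 NPC and control NPC and 72.8% between control NPC and hESC.

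A gene's count divided by its FPKM follows the length of the transcripts to which its reads were given, and was set relative to the mean of hESC, a measure added after the data were seen. For RNF43, with 6 transcripts in the files, it was 1.14, 1.15 and 1.15 in BafA1 NPC, 0.934, 0.944 and 1.12 in control NPC and 1.10, 0.999 and 0.898 in hESC. The BafA1 libraries were alike and above all the others, and replicate 3 of control NPC stood near them. ZNRF3 and NKD1 were between 0.997 and 1.00 in all libraries. For TCF7 it was 0.971, 0.978 and 0.989 in BafA1 NPC and 1.00, 0.938 and 0.947 in control NPC, which overlap.

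Some of the genes overlap another gene. As the use of strand in the counting was not given in the sources used here, reads of the overlap cannot be told apart. VDAC1, which overlaps TCF7, had 288 to 362 CPM in BafA1 NPC, 270 to 281 CPM in control NPC and 324 to 354 CPM in hESC. TSPOAP1-AS1, which overlaps RNF43, had 1.35 to 1.69 CPM in BafA1 NPC, 1.10 to 1.54 CPM in control NPC and 0.239 to 0.563 CPM in hESC. LEF1-AS1 had 0.512 to 0.621 CPM in BafA1 NPC, 0.651 to 1.14 CPM in control NPC and no count in hESC. ERICH2-DT at SP5 and ZNRF3-AS1 stayed at or below 0.730 CPM in all libraries.

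For 4 of the genes, the genes with the most similar profile over the 9 libraries were sought by Euclidean distance of centred log2 CPM among 15356 protein-coding genes. Nearest to AXIN2 were PTPRN2, NUAK1 and PHC2, at distances of 0.285 to 0.335. LEF1 was nearest to SOX21, SOX1 and DKK2 (0.898 to 1.16), and LGR5 to FAT4, COL2A1 and CSMD3 (0.958 to 1.12). SP5 was nearest to SNAI2, TCEA3 and IER5L (0.999 to 1.23). SNAI2 had 24.5 CPM in BafA1 NPC, 18.2 CPM in control NPC and 0.762 CPM in hESC on average, and SOX1, an early neural gene, 15, 23.9 and 0.0236 CPM in the same groups. SNAI2 is also in the neural crest list above and the list of further targets below. As the distance covers hESC too, a near gene need not change alike with BafA1. IER5L had means of 80.7 CPM in BafA1 NPC and 41.9 CPM in control NPC, against 36.8 and 29.2 CPM for SP5.

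Other genes of the pathway were followed in 3 lists. Among 18 tested paralogs and partners of the 10 genes (of 19), 5 rose and LGR4 alone fell with BafA1, with a median log2 fold change of 0.23. Among 20 tested further target genes of beta-catenin (of 25), 8 rose and 3 fell, with a median of 0.22. Among 24 tested genes of the pathway core, 6 rose and 8 fell, with a median of 0.01. Against hESC, control NPC had 5 higher and 9 lower among the paralogs, 13 and 6 among the further targets and 9 and 6 in the core. These counts stand beside the shares over all tested genes. With BafA1, 20.8% of all tested genes were called higher and 20.7% lower. Between control NPC and hESC the shares were 33.0% and 31.6%.

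**Figure D4:**
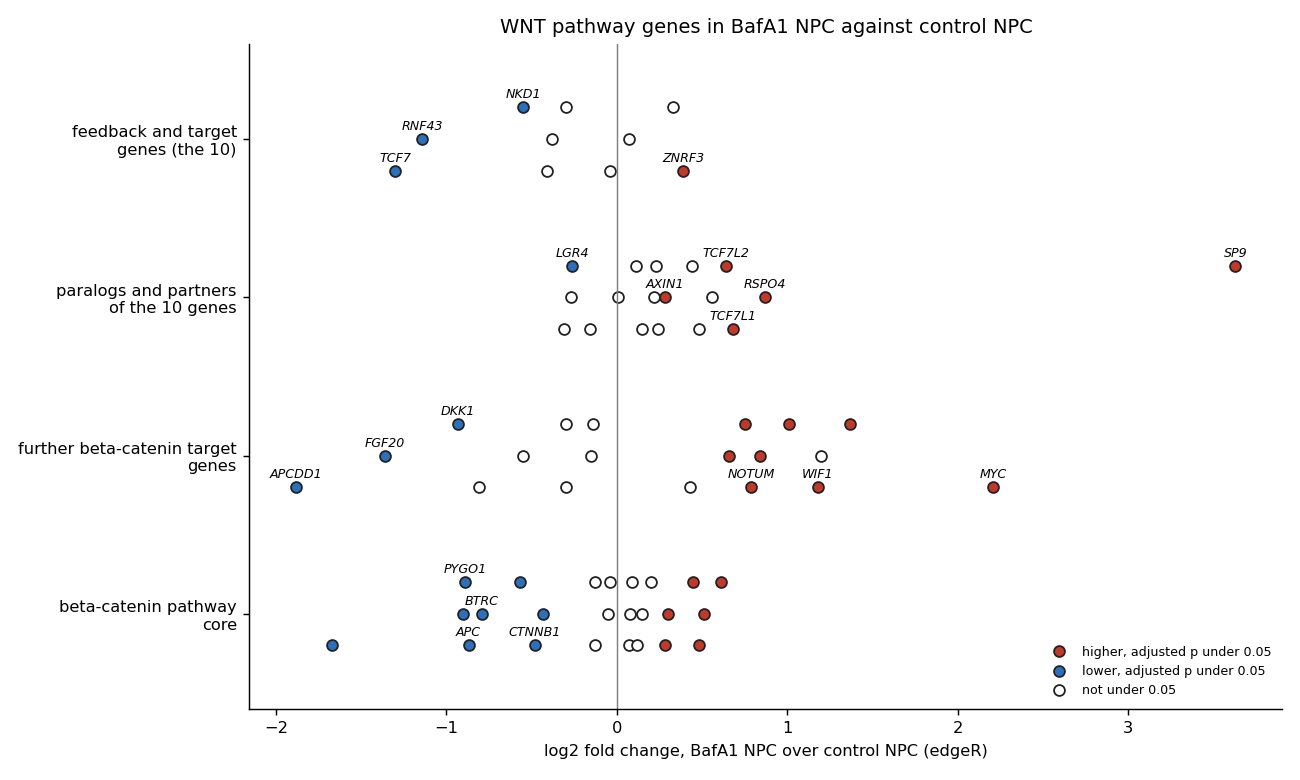
Log2 fold change of BafA1 NPC over control NPC for the 10 genes and for 3 lists of other WNT pathway genes (1 point per tested gene, staggered in height only for legibility). CDX4, tested but without a count in either NPC group, is not drawn. Red and blue points are called higher and lower at an adjusted p under 0.05 in edgeR. MYC at 2.21 and APCDD1 at -1.88 are the outermost named points among the further targets, and SP9 at 3.63 rests on 0, 4 and 0 counts in control NPC.

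The other TCF genes went the opposite way from TCF7 with BafA1. TCF7L1, mainly a repressor of WNT targets, had 120, 101 and 98.5 CPM in BafA1 NPC, 66.3, 65.1 and 68.1 CPM in control NPC and 214, 206 and 199 CPM in hESC. It was 1.60-fold higher with BafA1 (log2 fold change 0.68 ± 0.09, adjusted p = 0.000148). TCF7L2 had 69.6, 56.4 and 71.1 CPM in BafA1 NPC, 39.4, 43.2 and 43.6 CPM in control NPC and 55.4, 57.6 and 52.3 CPM in hESC, and was 1.56-fold higher with BafA1 (0.64 ± 0.10, adjusted p = 0.000369). For both genes the NPC groups did not overlap. Both were lower in control NPC than in hESC (-1.63 and -0.39), where TCF7 and LEF1 were higher.

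AXIN1 had a log2 fold change of 0.28 ± 0.09 with BafA1 (adjusted p = 0.0337), a call that did not hold in most alternatives. It was 0.06 with GC and length trends removed (adjusted p = 0.65), 0.15 with scaling by library size alone (adjusted p = 0.217) and 0.11 to 0.12 in the limma fits on FPKM (adjusted p = 0.358 to 0.432). The AXIN1 call was also lost with no filter, with only the NPC groups in the fit (adjusted p = 0.0554 and 0.0599), and without replicate 2 or 3 of BafA1 NPC, replicate 2 or 3 of control NPC or replicate 3 of hESC (adjusted p = 0.0534 to 0.111). LGR4, the broadly expressed R-spondin receptor, stood at -0.26 ± 0.10 (adjusted p = 0.0496), and its NPC groups overlapped. That call was lost with GC and length trends removed (-0.15, adjusted p = 0.194), with RLE scaling, with no filter and with only the NPC groups in the fit (adjusted p = 0.0581, 0.0666 and 0.0918). It was also lost without replicate 1 or 2 of BafA1 NPC, replicate 2 or 3 of control NPC or any hESC library (adjusted p = 0.0676 to 0.19). NKD2 did not pass with BafA1 (0.15 ± 0.16, adjusted p = 0.487) and was lower in control NPC than in hESC (-1.02 ± 0.16, adjusted p = 0.000139).

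Of the R-spondins, RSPO4 rose with BafA1, to 2.35, 2.07 and 2.11 CPM in BafA1 NPC against 1.33, 1.52 and 0.722 CPM in control NPC (0.87 ± 0.22, adjusted p = 0.00842), and hESC had 20.3, 19.3 and 18.6 CPM. The RSPO4 call was lost with limma on log2(FPKM + 1) (adjusted p = 0.059, and 0.103 on all genes). RSPO1, RSPO2 and RSPO3 did not pass the test with BafA1 (adjusted p = 0.499, 0.645 and 0.399). RSPO2 was 3.45-fold and RSPO3 7.98-fold higher in control NPC than in hESC (adjusted p = 0.00219 and 0.00141). SP9, named after its values were seen, had 16, 13 and 22 counts in BafA1 NPC against 0, 4 and 0 in control NPC and none in hESC (3.63 ± 0.89 with BafA1, adjusted p = 0.00914).

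Among the further targets, secreted and membrane inhibitors went both ways. APCDD1, a membrane-bound WNT inhibitor, had 98.5, 78.4 and 53.0 CPM in BafA1 NPC, 336, 290 and 217 CPM in control NPC and 24.3, 24.2 and 23.4 CPM in hESC. It was 3.67-fold lower with BafA1 (-1.88 ± 0.20, adjusted p = 4.59e-05). DKK1, which blocks LRP5/6, fell to 25.8, 20.0 and 22.6 CPM in BafA1 NPC against 53.1, 44.2 and 32.8 CPM in control NPC (-0.93 ± 0.17, adjusted p = 0.00111), and was near the floor in hESC (0.154, 0.166 and 0.0682 CPM).

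WIF1 and NOTUM, a ligand-binding inhibitor and an enzyme that inactivates WNT ligands, rose and were named after their values were seen. WIF1 had 8.27, 13.0 and 10.2 CPM in BafA1 NPC against 5.72, 4.82 and 3.33 CPM in control NPC (1.18 ± 0.22, adjusted p = 0.00146). NOTUM had 6.25, 8.04 and 10.3 CPM in BafA1 NPC against 5.81, 5.29 and 3.12 CPM in control NPC (0.79 ± 0.25, adjusted p = 0.0241), a call lost when GC and length trends were removed (0.42, adjusted p = 0.182), with limma at a pseudocount of 0.1 and on all genes (adjusted p = 0.069 and 0.117), and without replicate 2 or 3 of BafA1 NPC or replicate 3 of control NPC (adjusted p = 0.0502, 0.112 and 0.0653).

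The 3 further targets that fell were APCDD1, DKK1 and FGF20, the last also named after its values were seen. FGF20 had 10, 13 and 19 counts in BafA1 NPC and 41, 59 and 14 in control NPC, which overlap (-1.36 ± 0.49, adjusted p = 0.0432), and its call was lost without any 1 of the libraries other than replicate 3 of control NPC (adjusted p = 0.0574 to 0.201). MYC, a growth regulator and widely cited target, rose to 23.3, 28.8 and 28.6 CPM in BafA1 NPC against 4.62, 5.71 and 7.02 CPM in control NPC, a 4.64-fold higher level (2.21 ± 0.14, adjusted p = 4.68e-06). Unlike the 9 genes that were higher in control NPC than in hESC, MYC was highest in hESC, at 75.9, 69.1 and 72.1 CPM. CCND1, the cyclin D1 gene, did not pass with BafA1 (-0.14 ± 0.10, adjusted p = 0.287), but was called lower when GC and length trends were removed (-0.40, adjusted p = 0.00659).

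In the core, CTNNB1, the beta-catenin gene itself, had 532, 567 and 534 CPM in BafA1 NPC, 782, 800 and 700 CPM in control NPC and 572, 567 and 579 CPM in hESC. The BafA1 libraries were below all control NPC libraries and overlapped with hESC. CTNNB1 was 1.40-fold lower with BafA1 (-0.48 ± 0.09, adjusted p = 0.00108). APC, a scaffold of the capture complex, fell by 0.87 (SE 0.10) and BTRC, the ubiquitin ligase subunit that recognises phosphorylated beta-catenin, by 0.79 (SE 0.10) on the log2 scale (adjusted p = 7.38e-05 and 9.99e-05). PYGO1, a nuclear co-activator of beta-catenin, fell by 0.89 (SE 0.13, adjusted p = 0.00029). TLE4, a co-repressor that binds TCF proteins, did not pass with BafA1 (0.09 ± 0.10, adjusted p = 0.458) and was 2.51-fold higher in control NPC than in hESC (adjusted p = 2.25e-07). The 6 core genes that rose with BafA1 were DVL1, DVL2, DVL3, TLE1, TLE2 and TNKS, at log2 fold changes of 0.28 to 0.61.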

How the data were processed

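RNA of 9 H9 libraries was made into stranded mRNA libraries, per the labels' protocols; Trimmomatic and GRCh38 come from the submitters' processing notes, and the aligner and counter were not given in the sources used here. Deposited by the authors were raw counts per gene and, per the file headers, FPKM in a table for each group. Columns named as control were taken as untreated NPC, the only group left, and 0 columns belonged to other samples. The 10 genes, the lists and the tests were chosen with earlier results of these data known.

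edgeR 4.0.16 (R 4.3.3) was used with filterByExpr, TMM and a quasi-likelihood fit with a group term over all 9 libraries. The fit was also run on simulated counts. Far fewer genes were changed there than were called here, so that run does not check the scaling for these data. Named outside the 10 genes were, per other list, the 3 genes with the smallest adjusted p with BafA1, the 2 with the smallest between control NPC and hESC, and 11 genes in every case. SP9, WIF1, NOTUM, FGF20 and the core genes that rose with BafA1 were added after their values were seen. Alternatives used DESeq2 1.42.0, limma 3.58.1 on log2(FPKM + pseudocount), other scalings and filters, a replicate block, GC and length trends, and libraries left out. Coordinates are from RefSeq GRCh38.p14 by Entrez ID. Depth limits precision, and intervals and floors cover counting error only.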

Additional observations from a re-analysis of the deposited data

How the results depend on the processing

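For the 10 genes, 20 settings were tried. Between control NPC and hESC all 200 values kept their direction and their side of the threshold. Between BafA1 NPC and control NPC 184 of 199 did (SP8 was not tested in the fit of those groups alone), and between BafA1 NPC and hESC 196 of 200. The cause of the other values was not tested. With BafA1, the number of the 10 genes called higher was 0 in the 3 limma fits on FPKM, since ZNRF3 missed the threshold there, and 2520 genes of all were called higher with limma on all genes, against 4309. The number called lower between BafA1 NPC and hESC was 1 with GC and length trends removed, with or without the block, against 2. Leaving out a library put the change of the LGR5 over LGR4 ratio with BafA1 between -0.44 and 0.16 (0.14 without BafA1 replicate 3 and 0.16 without control replicate 1), against -0.13. RNF43 with BafA1 was -0.60 on the log2(FPKM + 1) scale, which understates changes of low genes.

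Signs turned as follows, none past the threshold. With BafA1, AXIN2 was 0.08 without control replicate 1, SP8 0.12 without control replicate 2 (lowest -0.88) and RSPO2 -0.15 without BafA1 replicate 1 (highest 0.83). TNFRSF19 was -0.05 and TLE4 -0.03 with library size alone, and with limma TNFRSF19 was -0.07, NKD2 -0.01 and TLE4 -0.03 to -0.04, and TLE4 was -0.01 without BafA1 replicate 1. With GC and length trends removed SP5 was -0.18 (-0.14 with the block) and NKD2 -0.21, between control NPC and hESC BTRC was -0.01 and CCND1 0.03 (0.02 with the block), and between BafA1 NPC and hESC RNF43 was 0.07. RSPO1 between control NPC and hESC was -0.02 without control replicate 3 and -0.26 without hESC replicate 2 (highest 0.58), and FGF20 between BafA1 NPC and hESC 0.14 without BafA1 replicate 1 (lowest -0.19). Counts of list genes called with BafA1 moved too. Paralogs called higher numbered 3 with limma on log2(FPKM + 1), against 5, and those called lower 0 to 4, against 1. Further targets called higher numbered 5 with limma on all genes, against 8, and those called lower up to 8, against 3. Core genes called higher numbered 1 to 3 with limma or GC and length trends removed, against 6, and between BafA1 NPC and hESC 12 with those trends removed, against 6.

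Replicate numbers are shared by the groups, and the labels do not say whether same-numbered libraries came from a shared culture. The correlation of deviations from the group means was -0.0554 to 0.0877 between same-numbered libraries of different groups. Between the other libraries of different groups it was -0.0572 to 0.0498. Values this near each other do not tell whether the libraries were paired. With a replicate block 4112 genes were called higher and 4130 lower with BafA1, and the log2 fold changes were -1.31 for TCF7, -1.13 for RNF43, -0.54 for NKD1 and 0.40 for ZNRF3. With the block the calls with BafA1 of LGR4 (-0.26, adjusted p = 0.0521) and FGF20 (-1.25, adjusted p = 0.0903) were lost.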
